A study of Mus musculus with 6 samples.

Results

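The 10 genes described here encode the core of the Hippo pathway and the membrane proteins that feed it: the kinases Stk3 and Stk4, their adaptor Sav1, the kinases Lats1 and Lats2, their activators Mob1a and Mob1b, and the upstream regulators Nf2, Amot and Amotl1. They were taken by gene symbol from a table of read counts around transcription start sites, in which all 10 were present among 49366 genes. In this pathway Stk3 and Stk4, also called Mst2 and Mst1, phosphorylate Lats1 and Lats2 with the help of Sav1 and the Mob1 proteins, and Lats1 and Lats2 phosphorylate the coactivator Yap, which is then held in the cytoplasm or degraded and no longer works with TEAD factors in the nucleus. Nf2, or Merlin, brings Lats kinases to the membrane, and the angiomotins Amot and Amotl1 bind Yap directly and also engage Lats kinases. In skeletal muscle the pathway is known for its part in the control of fibre size and of muscle stem cells.

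The assay was ATAC-seq, which reads open chromatin through the cuts that a transposase makes in exposed DNA, in nuclei sorted for Pcm1, a protein found around the nuclei of muscle fibres. An AAV6 vector carried an shRNA, a short hairpin that silences a transcript, directed at Yap or at LacZ, a bacterial gene that served as control, and the vectors went into opposite limbs of male C57BL/6J mice at 8 weeks of age. Gastrocnemius and tibialis anterior muscles were taken 28 days later, 4 of each were pooled per replicate, and each group had 3 replicates. Both groups therefore carried a vector and an shRNA, and a pooled replicate gives no values for its individual animals.

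Reads counted in start site windows ranged from 3326803 to 8964441 per library in LacZ-shRNA and from 8622014 to 10319467 in Yap-shRNA, and 2 of the control libraries were shallower than every Yap-shRNA library. The Yap1 window, the targeted gene, differed by 0.04 on the log2 scale (SE 0.18, edgeR adjusted p 0.990), which does not check the knockdown, since an shRNA acts on the transcript. The labels name skeletal muscle whereas the design text of the series names cardiomyocytes. Windows of 10 myofibre markers had a median level of 16.4 CPM (reads scaled to a common library size by TMM factors) per kb, against medians of 3.63 to 6.44 for satellite cell, fibroblast, endothelial, leukocyte and smooth muscle markers and 4.29 for windows without a peak. Among the myofibre markers the skeletal fast-fibre gene Myh4 read 14.9 CPM per kb, Tnnt3 35.9, Actn3 19.6 and Mylpf 13.4. The myosin genes Myh1 and Myh2 read 4.10 and 5.28, and Mstn read 6.74. The satellite cell marker Cdh15 read 19.9. No list of heart markers was read, so these levels were not set beside those of heart genes. The labels and the study's methods, which name gastrocnemius and tibialis anterior muscles, were followed. No marker window passed the threshold. The summed myofibre markers read 1052 to 1498 CPM in LacZ-shRNA and 1134 to 1305 CPM in Yap-shRNA. Of these 10, 2 had a log2 fold change above 0 and 8 below (median -0.10), the lowest being Mylpf at -0.28 (unadjusted edgeR p 0.0504). The summed fibroblast markers read 168 to 199.5 CPM in LacZ-shRNA and 191 to 234 CPM in Yap-shRNA. Of the 6, 3 had a log2 fold change above 0, with an unadjusted edgeR p under 0.05 at Col1a1 (0.39) and Col3a1 (0.34), and 3 below, among them Dcn (-0.26) and Pdgfra (-0.25). The summed endothelial markers read 100.2 to 112 CPM and 103 to 110.3 CPM, with 3 of 5 above 0 and a median of 0.004, although Kdr was at -0.59 (unadjusted p 0.00116). The leukocyte markers read 84.1 to 99.0 CPM and 94.0 to 100.7 CPM, with 4 of 5 above 0 (median 0.25) and Csf1r at 0.32 (unadjusted p 0.0321). Ptprc went the other way, at -0.30 (unadjusted p 0.0674). Among satellite cell markers, which read 98.2 to 111 CPM and 97.4 to 108 CPM, 2 of 5 were above 0 and Calcr was at -0.37 (unadjusted p 0.0242). No listed marker with a window was at 0, and the part of such cells in the results was not tested. In such bulk samples a smaller share of nuclei with an open site and less opening per nucleus cannot be told apart.

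The 10 genes have 57 annotated transcript starts (GRCm38), and 29 of them lay in a peak of accessibility. Every start of Mob1a (6 of 6) and Mob1b (3 of 3) was in a peak, whereas 5 of 12 starts of Nf2, 2 of 6 of Amot and 1 of 6 of Amotl1 were. For each gene the peak with the most reads within 1 kb of a start, called the main promoter peak below, covered at least 1 start. Promoter sequences of RefSeq (GRCm38.p6), each running from 250 bases before a start to 50 after it, were given for 9 of the 10 genes, 11 in all. Stk3 had none.

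The promoters of Lats1 and Mob1a are printed because each is shared with another gene that runs the opposite way, which matters for their counts. The annotated starts of Lats1 and Pcmt1 lie 78 bp apart and those of Mob1a and Mthfd2 108 bp apart, and capitals mark the bases from the neighbour's start to that of the Hippo gene. The Lats1 sequence is chr10:7680959-7681258 and the Mob1a sequence chr6:83325789-83326088, both on the plus strand.
Lats1: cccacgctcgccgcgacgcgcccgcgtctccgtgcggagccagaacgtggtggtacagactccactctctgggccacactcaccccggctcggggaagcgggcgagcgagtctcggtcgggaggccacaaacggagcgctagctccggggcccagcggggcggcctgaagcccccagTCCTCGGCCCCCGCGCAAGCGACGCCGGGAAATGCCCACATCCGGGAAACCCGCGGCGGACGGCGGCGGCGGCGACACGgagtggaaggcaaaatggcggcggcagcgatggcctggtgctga
Mob1a: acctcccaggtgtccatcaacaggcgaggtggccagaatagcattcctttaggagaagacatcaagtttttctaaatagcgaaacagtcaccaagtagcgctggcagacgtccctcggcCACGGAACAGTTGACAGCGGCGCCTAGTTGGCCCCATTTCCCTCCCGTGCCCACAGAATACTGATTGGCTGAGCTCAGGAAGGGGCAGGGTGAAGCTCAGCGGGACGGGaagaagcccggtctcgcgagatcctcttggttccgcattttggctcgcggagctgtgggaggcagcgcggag

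Nf2 has a pair of RefSeq promoters of which 1 lay in a peak and the other far from any, and they are printed with every CG dinucleotide in capitals. The first, chr11:4849495-4849794 on the minus strand, lay under the main promoter peak and held 22 CG dinucleotides at 56.3% GC. The second, chr11:4833086-4833385 on the minus strand, lay 15330 bp from the nearest peak and held 2 at 34.3% GC.
Nf2, first promoter: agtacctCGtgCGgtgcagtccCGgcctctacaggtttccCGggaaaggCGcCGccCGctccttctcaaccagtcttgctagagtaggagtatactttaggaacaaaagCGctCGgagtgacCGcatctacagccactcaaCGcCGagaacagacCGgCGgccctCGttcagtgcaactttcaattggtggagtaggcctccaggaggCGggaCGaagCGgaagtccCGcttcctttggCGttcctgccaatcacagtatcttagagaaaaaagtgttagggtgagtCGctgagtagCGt
Nf2, second promoter: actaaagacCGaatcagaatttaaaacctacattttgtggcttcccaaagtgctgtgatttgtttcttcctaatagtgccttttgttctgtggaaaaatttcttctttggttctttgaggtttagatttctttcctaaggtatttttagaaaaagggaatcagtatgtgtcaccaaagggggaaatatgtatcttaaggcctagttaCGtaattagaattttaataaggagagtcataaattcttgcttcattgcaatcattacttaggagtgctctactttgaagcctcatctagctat
Of the 11 promoters, 7 overlapped a peak, and these had 56.3% to 78.3% GC and 19 to 50 CG dinucleotides, the most in Sav1. The 4 without a peak were the second promoters of Nf2 and Lats2 (42.7% GC, 4 CG dinucleotides) and the sequences given for Amot (46.0%, 7) and Amotl1 (61.3%, 21). Those of Amot and Amotl1 lie at inner starts and not under the main promoter peaks of these genes. The Stk4 sequence also lies at an inner start, under a weaker peak. The starts under the main promoter peaks of Stk3, Stk4, Amot and Amotl1 are therefore not among the sequences described here and searched below. The medians over all 32851 RefSeq promoters were 52.7% GC and 7 CG dinucleotides.

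Because Yap acts through TEAD factors, the promoters were searched on both strands for the TEAD motif ACATTCC and for its last 6 letters, CATTCC, which also match wherever the longer motif does. None of the 11 held the longer motif, which 3.85% of all RefSeq promoters held, and 3 held the shorter (Mob1a, Sav1 and Lats2), against 14.7% of all. The Lats2 promoter, chr14:57746074-57746373 on the minus strand, is printed with that match in capitals, where it reads as its reverse complement. It lies among the 50 bases after the annotated start.
Lats2: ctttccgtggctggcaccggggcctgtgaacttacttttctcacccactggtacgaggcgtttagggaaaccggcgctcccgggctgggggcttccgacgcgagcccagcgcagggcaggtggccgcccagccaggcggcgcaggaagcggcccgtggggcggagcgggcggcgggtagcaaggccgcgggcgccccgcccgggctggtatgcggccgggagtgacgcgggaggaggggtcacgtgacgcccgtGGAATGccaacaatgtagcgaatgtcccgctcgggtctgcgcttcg
The SP1 motif GGGCGGG was found in 5 of the 11 (Stk4, Mob1b, Amotl1, Sav1 and Lats2), against 25.6% of all promoters, the NFY motif CCAAT in 3 (Mob1a, Nf2 and Amot), against 37.4%, and the ETS motif CCGGAAG in Stk4, against 8.86%. The CRE motif TGACGTCA was in none of the 11. These matches describe letters and not bound sites.

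The comparison of Yap-shRNA with LacZ-shRNA asks whether accessibility at the genes that regulate Yap differed when Yap was lowered. No window of the 10 genes passed an adjusted p of 0.05 in edgeR's quasi-likelihood test and none had an unadjusted p under 0.05, against backgrounds of 0.0223% and 4.9% of all windows. In no gene did all 3 replicates of a group lie beyond those of the other, which 10.1% of all windows did. Windows of 4 genes had a log2 fold change above 0 (Lats1, Mob1a, Nf2 and Amotl1), against 47.3% of all windows, and 6 had a value below 0, although scaling by library size alone turned this to 6 and 4. Their median was -0.05, beside -0.01 for all windows. The 95% intervals of 8 genes, leaving out Lats1 and Mob1a whose windows held few reads, reached no further than 0.43 on the log2 scale in either direction, a 1.35-fold difference.

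**Figure D1:**
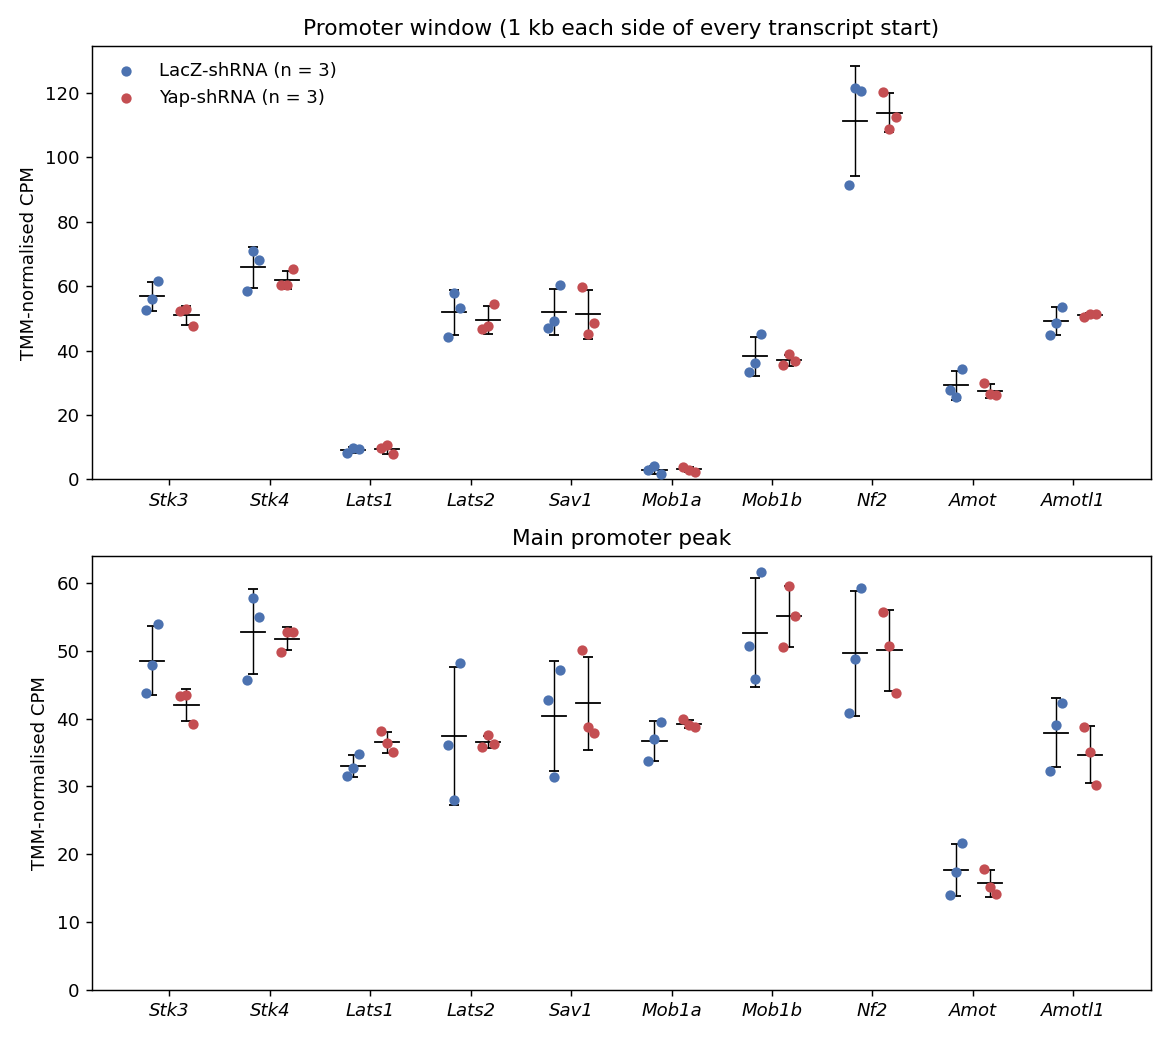
TMM-normalised CPM of each library at the 10 genes, in the window 1 kb to each side of every transcript start (upper plot) and in the main promoter peak (lower plot). Points are libraries, horizontal lines are the means and bars the SD of 3 replicates; the Nf2 window reads from 91.5 to 121 CPM and the groups overlap in every window, while in the peaks Stk3 and Lats1 alone have groups that do not overlap.

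Stk3 and Stk4 start the kinase cascade. The Stk3 window read 52.6, 56.1 and 61.6 CPM in LacZ-shRNA replicates 1, 2 and 3 and 52.2, 52.8 and 47.6 CPM in Yap-shRNA. All but 1 of the Yap-shRNA values were under the lowest control value, and the log2 fold change was -0.16 (SE 0.13, 95% interval -0.43 to 0.11, adjusted p 0.951). The Stk3 main promoter peak, chr15:35155134-35156229 over an exon and 3 of its starts, read 43.8, 48.0 and 53.9 CPM in LacZ-shRNA and 43.3, 43.5 and 39.2 CPM in Yap-shRNA. Its groups did not overlap, as in 13.3% of all peaks, but the gap between them was small and the log2 fold change was -0.22 (SE 0.13, unadjusted p 0.0871, adjusted p 0.652). Stk4 read 58.6, 70.8 and 68.1 CPM in its window in LacZ-shRNA and 60.4, 60.4 and 65.3 CPM in Yap-shRNA, all within the control range (log2 fold change -0.08, SE 0.13, adjusted p 0.974). At its main promoter peak, chr2:164070217-164071567, the libraries read 45.7, 57.7 and 54.9 CPM against 49.8, 52.8 and 52.8 CPM (log2 fold change -0.02, SE 0.12, adjusted p 0.984). That peak also overlaps an exon of Tomm34, whose closest start lies 780 bp from that of Stk4, and the reads of these genes cannot be told apart there. Stk4 had a further pair of weaker peaks at its inner starts, chr2:164073779-164074509 and chr2:164081744-164082725, with log2 fold changes of 0.01 (SE 0.17) and -0.14 (SE 0.16).

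Sav1, the scaffold that holds Stk3 or Stk4 to Lats kinases, read 47.0, 49.0 and 60.3 CPM in its window in LacZ-shRNA and 59.8, 45.2 and 48.6 CPM in Yap-shRNA. The highest values of the groups were close and the groups overlapped (log2 fold change -0.04, SE 0.14, adjusted p 0.989). Its main promoter peak, chr12:69985975-69987588, read 42.7, 31.4 and 47.1 CPM in LacZ-shRNA and 50.1, 38.8 and 37.9 CPM in Yap-shRNA, a log2 fold change of 0.03 (SE 0.14, adjusted p 0.986).

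Lats1 and Lats2 are the kinases that phosphorylate Yap, and Lats2 is known as a transcriptional target of Yap and TEAD. The Lats2 window read 44.3, 58.0 and 53.3 CPM in LacZ-shRNA and 46.5, 47.6 and 54.6 CPM in Yap-shRNA, inside the control range in every replicate (log2 fold change -0.06, SE 0.14, 95% interval -0.34 to 0.22, adjusted p 0.983). Its main promoter peak, chr14:57745214-57746672, read 36.1, 28.0 and 48.2 CPM in LacZ-shRNA and 35.8, 37.5 and 36.2 CPM in Yap-shRNA. The controls were spread widely around the tight Yap-shRNA values, and the log2 fold change was -0.09 (SE 0.14, adjusted p 0.930). A second Lats2 peak over an inner start, chr14:57699541-57700511, had a log2 fold change of -0.01 (SE 0.18). The Lats1 window held few reads, at 8.14, 9.61 and 9.57 CPM in LacZ-shRNA and 9.78, 10.6 and 7.88 CPM in Yap-shRNA (log2 fold change 0.06, SE 0.20, adjusted p 0.988). The Lats1 main promoter peak, chr10:7680784-7682012, which also covers the start of Pcmt1, read 31.5, 32.7 and 34.8 CPM in LacZ-shRNA and 38.1, 36.4 and 35.1 CPM in Yap-shRNA. Every Yap-shRNA value was above every control value, yet by as little as 35.1 against 34.8, and the log2 fold change of 0.14 (SE 0.13) had an adjusted p of 0.848.

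Mob1a and Mob1b bind and activate Lats kinases. Mob1b read 33.5, 36.2 and 45.0 CPM in its window in LacZ-shRNA and 35.4, 38.8 and 36.7 CPM in Yap-shRNA, between the lowest and highest controls (log2 fold change -0.06, SE 0.14, adjusted p 0.982). The main promoter peak of Mob1b, chr5:88720361-88722371, read 50.7, 45.9 and 61.6 CPM against 50.5, 59.6 and 55.1 CPM (log2 fold change 0.04, SE 0.13, adjusted p 0.975). The Mob1a window held 13 to 16 reads in the control libraries and 21 to 39 in the Yap-shRNA libraries. It read 2.89, 4.17 and 1.82 CPM in LacZ-shRNA and 3.97, 3.07 and 2.43 CPM in Yap-shRNA, a log2 fold change of 0.23 whose 95% interval ran from -0.47 to 0.94 (adjusted p 0.971). A change of moderate size was not detectable there at this depth. The Mob1a main promoter peak, chr6:83325573-83326665, read 33.7, 36.9 and 39.5 CPM in LacZ-shRNA and 39.9, 39.05 and 38.7 CPM in Yap-shRNA (log2 fold change 0.09, SE 0.13, adjusted p 0.927). It covers the start of Mthfd2 as well, and the reads of the genes cannot be told apart there.

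Nf2, the tumour suppressor Merlin, read 91.5, 121 and 121 CPM in its window in LacZ-shRNA and 120, 109 and 113 CPM in Yap-shRNA. LacZ-shRNA replicate 1 lay below the other 5 libraries, and the groups overlapped (log2 fold change 0.04, SE 0.14, adjusted p 0.989). Its main promoter peak, chr11:4848715-4850040, over 5 of its starts, read 40.8, 48.8 and 59.2 CPM in LacZ-shRNA and 55.7, 50.7 and 43.8 CPM in Yap-shRNA (log2 fold change -0.01, SE 0.13, adjusted p 0.997).

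Amot and Amotl1 code for angiomotins, which tie Yap to cell junctions and actin. Amot read 27.9, 25.6 and 34.2 CPM in its window in LacZ-shRNA and 29.8, 26.4 and 26.1 CPM in Yap-shRNA (log2 fold change -0.12, SE 0.15, adjusted p 0.963). Its main promoter peak, chrX:145504672-145505497, was the weakest of the 10, at 14.0, 17.4 and 21.7 CPM in LacZ-shRNA and 17.8, 15.1 and 14.1 CPM in Yap-shRNA (log2 fold change -0.21, SE 0.18, adjusted p 0.831). Amotl1 read 44.9, 48.7 and 53.5 CPM in its window in LacZ-shRNA and 50.5, 51.5 and 51.5 CPM in Yap-shRNA, all inside the control range (log2 fold change 0.06, SE 0.13, adjusted p 0.983). The main promoter peak of Amotl1, chr9:14642481-14643709, read 32.3, 39.1 and 42.3 CPM against 38.7, 35.0 and 30.3 CPM (log2 fold change -0.14, SE 0.14, adjusted p 0.865). A weaker Amotl1 peak 819 bp from an inner start, chr9:14613170-14613767, had a log2 fold change of -0.24 (SE 0.20).

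**Figure D2:**
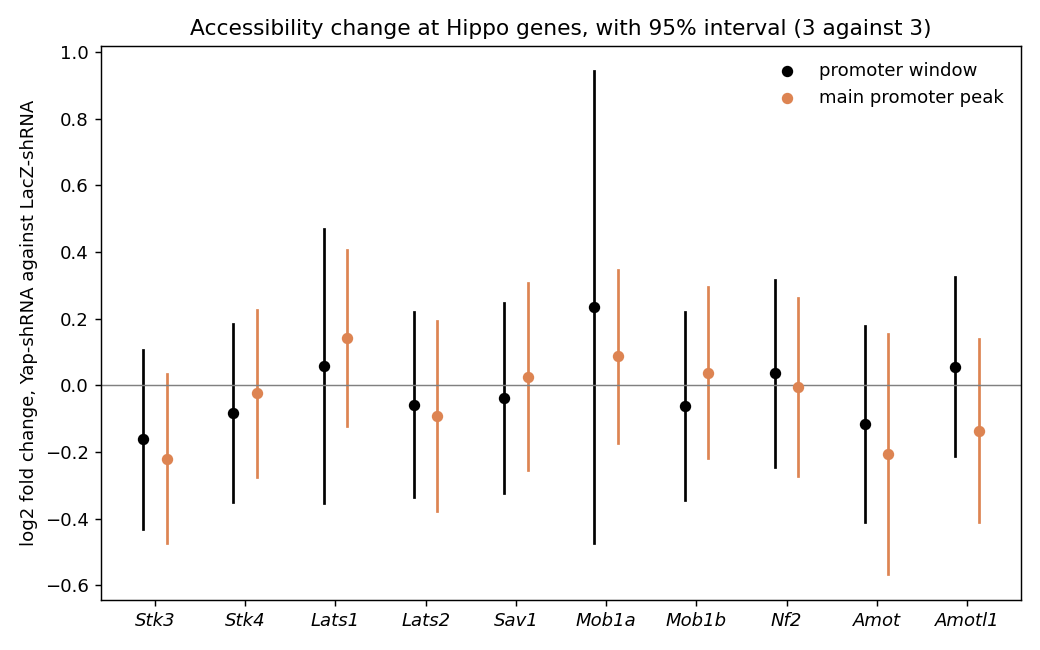
Log2 fold change of Yap-shRNA against LacZ-shRNA at the 10 genes with the 95% interval derived from the edgeR test, for the window (black) and the main promoter peak (orange). Every interval crosses 0; the widest is that of the Mob1a window, from -0.47 to 0.94.

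Among the main promoter peaks 4 of the 10 were higher and 6 lower, and none passed the threshold, which 0.618% of all peaks did. With library size alone 8 were higher, but the median of all peaks then moved to 0.14, and the median of the 10 stood at 0.13. Their intervals reached at most 0.57 on the log2 scale, at Amot. All 14 peaks within 1 kb of a start had an unadjusted p of 0.05 or more, against 8.9% of all peaks under it.

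Levels of different genes were compared per kb of window. Over the 6 libraries Mob1b had the highest mean, 17.7 CPM per kb, above 98.3% of all windows. Sav1 followed at 8.60, Nf2 at 7.34, Stk3 at 6.61, Stk4 at 6.39, Amotl1 at 5.94, Lats2 at 5.11, Amot at 4.27, Lats1 at 2.32 and Mob1a at 1.30 CPM per kb. Only Mob1b and Sav1, Amot and Lats1, and Lats1 and Mob1a were neighbours in this order whose ranges over the libraries did not overlap. The window of Mob1b is 2123 bp long around starts that lie close together, whereas that of Nf2 is 15331 bp in 6 pieces. Windows without a peak had a median of 4.29 CPM per kb and those with a peak 9.13, in genes that share no window with another. Amot, whose window is unshared, read at the level of windows without a peak although it had a promoter peak. Lats1 and Mob1a, whose windows are 48.1% and 80.7% shared, read below it per kb of whole window. With all reads of the window divided by its unshared length, they read 4.46 and 6.77 CPM per kb of unshared window. That measure takes no reads to come from the shared part, and how such reads were assigned is not given.

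The order by main promoter peak was different. Stk3 came first at 41.3 CPM per kb, followed by Stk4 at 38.7, Nf2 at 37.6, Mob1a at 34.7, Amotl1 at 29.5, Lats1 at 28.3, Mob1b at 26.8, Sav1 at 25.6, Lats2 at 25.4 and Amot at 20.2. No neighbours in this order had ranges that were apart. Among 12725 promoter peaks Stk3 stood above 92.2%, Lats2 above 50.1% and Amot above 22.3%. Mob1a, the lowest of the 10 by window, ranked 4 by peak, and Mob1b, the highest by window, ranked 7. The main promoter peaks of Stk4, Lats1, Lats2, Mob1a and Amotl1 also lay within 1 kb of a start of another gene, whose reads they may hold.

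**Figure D3:**
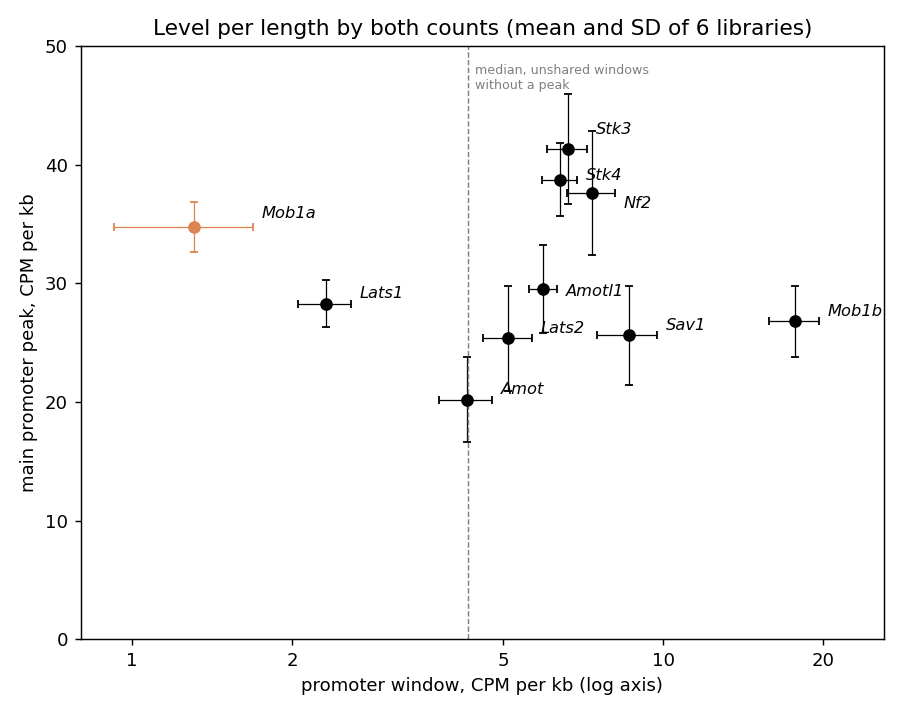
Mean level of each gene over 6 libraries, in CPM per kb of window (log axis) and in CPM per kb of main promoter peak, with SD bars. Mob1a (orange, over 50% of its window shared with another gene) and Lats1 lie left of the dashed line, the 4.29 CPM per kb median of windows without a peak, while their peaks read 34.7 and 28.3 CPM per kb.

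Windows of 5 of the 10 genes overlapped the window of another gene, and at Mob1a and Lats1 the window held far fewer reads than the peak within it. Of the 2345 bp of the Mob1a window 452 bp were not shared with Mthfd2, and of the 4002 bp at Lats1 2079 bp were not shared with Pcmt1. Summed over the 6 libraries the Mob1a window held 138 reads, while the peak inside it held 1270, so the window had 10.9% of the peak's reads. At Lats1 the window held 437 reads and the peak 1167 (37.4%). In the other 8 genes the window held 97.0% to 313% of the reads of the peaks that overlap it. Among all windows with a peak, 42.4% of 5583 shared windows held under 50% of their peaks' reads, against 0.971% of 7417 unshared windows. The windows of the neighbours held 2698 reads (Pcmt1) and 1246 reads (Mthfd2). For Mob1a and Lats1 the peak is therefore the readout with more reads, although it cannot be divided between the neighbours.

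Within a library the paralogues could be compared directly, as the difference of log2 CPM per kb. By window Lats1 was below Lats2 by a mean of -1.14 (SD 0.23) and Mob1a below Mob1b by -3.81 (SD 0.56), in 6 of 6 libraries each (exact two-sided sign-flip test, adjusted p 0.0417 over 4 pairs). Per kb of unshared window, which again divides all reads of the window by its unshared length, the differences were smaller, at -0.55 for Lats1 and -1.44 for Mob1a. By the reads of the peaks that overlap the windows these directions turned, to 0.35 (SD 0.14) for Lats1 over Lats2 and 0.38 (SD 0.14) for Mob1a over Mob1b, again in 6 of 6 libraries (exact adjusted p 0.0312). That readout pools every overlapping peak, of which Lats2 and Amotl1 had 2 each, Stk4 had 3 and the other genes had 1. By main promoter peak alone Lats1 and Lats2 read 28.3 and 25.4 CPM per kb. There LacZ-shRNA replicate 3 went the other way, at 28.3 and 33.0. The Lats1 and Mob1a peaks also cover the starts of Pcmt1 and Mthfd2. Amot was below Amotl1 by either readout, by -0.48 (SD 0.15) per kb of window, -1.06 per kb of unshared window and -0.41 (SD 0.11) per kb of peak, in 6 of 6 libraries. Stk3 and Stk4 differed by 0.05 (SD 0.12, exact p 0.406) per kb of window, by -0.14 per kb of unshared window and by 0.45 per kb of pooled peaks. By main promoter peak alone they read 41.3 and 38.7 CPM per kb, where the Stk4 peak also overlaps an exon of Tomm34. Between groups, the ratios of the paralogues by window, unshared window and pooled peaks gave exact two-sided permutation p-values from 0.2 to 0.9, where 3 against 3 cannot go below 0.1.

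Together with the 14 promoter peaks, 49 peaks lay within 50 kb of a start of the 10 genes, with 24 higher and 25 lower and a median log2 fold change of -0.006 beside -0.003 for all peaks. By library size alone, which moves all peaks upward, 36 were higher. Of these 49 peaks 1 passed the threshold (2.04%, against 0.618% of all peaks), 2 had an unadjusted p under 0.05 (4.08%, against 8.9%) and 6 had groups that did not overlap (12.2%, against 13.3%). Leaving out the peak that passed, values ran from -0.47 to 0.31.

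The peak that passed lay upstream of Amot between genes, at chrX:145514784-145515361, 9603 bp from the nearest Amot start. It read 3469, 3037 and 2768 CPM in LacZ-shRNA and 825, 1365 and 1567 CPM in Yap-shRNA. All controls lay far above all Yap-shRNA libraries. The means were 3091 ± 354 and 1252 ± 384 CPM (SD over 3 replicates), and edgeR gave a log2 difference of -1.30 (SE 0.28) with an adjusted p of 0.0114. It was a peak of an unusual kind. By mean level it ranked 14 of 36097 peaks, against a mean of 16.7 CPM at the Amot promoter peak, and it contains a run of 40 G bases. That stretch, chrX:145514994-145515113 on the plus strand, is printed with the run in capitals, because most peaks with such runs differed in the same direction.
Amot upstream peak: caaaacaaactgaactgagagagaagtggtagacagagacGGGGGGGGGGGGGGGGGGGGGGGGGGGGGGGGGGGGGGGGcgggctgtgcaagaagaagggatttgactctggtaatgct
Runs of 30 or more G or C were found in 40 peaks, and 36 of these were lower in Yap-shRNA past the threshold and 0 higher. Runs of 15 or more were found in 1.13% of all peaks and in no other peak near the 10 genes. The call was lost without LacZ-shRNA replicate 2 (adjusted p 0.0605), Yap-shRNA replicate 1 (0.190) or Yap-shRNA replicate 2 (0.181). It was also lost with a mean count of at least 50 (0.0566) and with the replicate number as a block (0.335), although the numbers were not shown to mark the same mice. Over all alternatives that kept the peak its adjusted p ran from 3.5e-10 to 0.335 and its log2 fold change from -1.52 to -1.08. Whether the run sets the difference was not tested, and the Amot promoter peak and window did not pass the threshold.

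**Figure D4:**
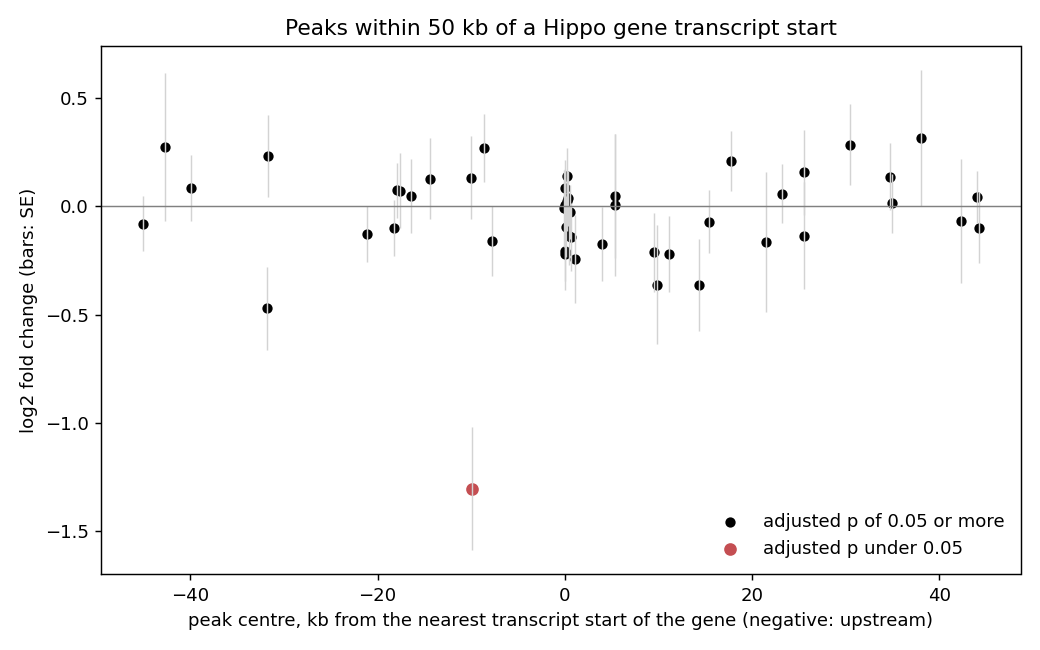
Log2 fold change (bars, SE) of the 49 peaks within 50 kb of the 10 genes by the distance of the peak centre from the nearest transcript start of the gene in kb, negative values being upstream. The peak upstream of Amot (red, -1.30) stands below the other 48, which lie between -0.47 and 0.31.

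The other peak with an unadjusted p under 0.05 lay upstream of Amotl1 between genes, at chr9:14676602-14677191, 31546 bp from its nearest start. It read 15.6, 20.4 and 16.1 CPM in LacZ-shRNA and 10.7, 11.3 and 15.1 CPM in Yap-shRNA. All Yap-shRNA values were under the lowest control value, the log2 fold change was -0.47 (SE 0.19, unadjusted edgeR p 0.0178), and the adjusted p was 0.396, with 0.283 to 0.910 over the alternatives. This peak holds the TEAD motif ACATTCC. Only 1 other of the 49 peaks did, a peak near Mob1a at chr6:83356471-83357112 in the gene Bola3, whose values went the other way, at 12.3, 18.7 and 12.1 CPM in LacZ-shRNA and 15.7, 16.7 and 17.9 CPM in Yap-shRNA (log2 fold change 0.28, SE 0.19, adjusted p 0.730). The matches, with 10 bases on each side from the plus strand, are printed with the motif in capitals, at chr9:14676606-14676632 and at chr6:83356619-83356645, where the motif reads as its reverse complement.
Amotl1 upstream peak: gaggagtgccACATTCCtatcctgcta
Bola3 peak near Mob1a: ctggcaggagGGAATGTgcacagtgga
The motif was in 8.96% of all peaks and in 11.7% of 12725 promoter peaks, but in none of the 14 promoter peaks of the 10 genes.

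Of the remaining genes, those whose peak of smallest p-value was not at the promoter gave the following values, none of which passed the threshold. An intronic peak of Nf2, chr11:4800661-4801136, read 12.05, 11.5 and 12.4 CPM in LacZ-shRNA and 9.50, 9.03 and 9.59 CPM in Yap-shRNA, with tight groups that did not overlap (log2 fold change -0.36, SE 0.21, adjusted p 0.673). A peak at starts of Mthfd2 and Gm43890, 8055 bp from the Mob1a start at chr6:83316900-83317961, read 18.3, 22.1 and 21.5 CPM against 21.4, 24.9 and 28.4 CPM (log2 fold change 0.27, SE 0.16, adjusted p 0.665). Near Stk4, a peak in Pabpc1l at chr2:164038236-164038993 had a log2 fold change of 0.23 (SE 0.19), and near Mob1b a peak at Grsf1 at chr5:88675005-88676639 had -0.08 (SE 0.13). Within the body of Sav1, a peak that also overlaps Gm3086, at chr12:69968003-69968610, had -0.21 (SE 0.18).

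The rest of the pathway was followed through 72 further genes, of which 71 had a window and Frmd1 had none. None passed the threshold and none had an unadjusted p under 0.05, against 4.9% of all windows, with 41 higher and 30 lower and a median of 0.03, or 55 higher by library size alone. The lowest was Dchs1, a protocadherin that pairs with Fat4, at -0.25 (SE 0.15), and the highest Map4k5, a kinase that can phosphorylate Lats1 and Lats2, at 0.23 (SE 0.15). Tjp1, a tight junction scaffold, had -0.24 (SE 0.14, unadjusted p 0.0865) and Scrib, a polarity scaffold, 0.23 (SE 0.14, unadjusted p 0.101). Of the 19 kinases acting on or beside Lats, 16 were higher, with a median of 0.09, where 47.3% of all windows were above 0. Under the other scalings and tools 15 to 17 were higher, but no member of the list passed. Their summed windows read 1136 to 1489 CPM in LacZ-shRNA and 1396 to 1474 CPM in Yap-shRNA, so the Yap-shRNA sums lay inside the control range. In 1 of the 19 the groups did not overlap, as in 10.1% of all windows. Of 19 apical and membrane scaffolds 6 were higher (median -0.05), or 11 by library size alone. The phosphatase complex STRIPAK had 8 of 13 higher (median 0.02, or 11 higher by library size alone), the other inhibitors and adaptors 6 of 14 (-0.02, or 10 higher by library size alone), and the effectors, Yap1, Wwtr1 and the 4 Tead genes, 5 of 6 (0.05).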

How the data were processed

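ATAC-seq libraries of 3 LacZ-shRNA and 3 Yap-shRNA replicates were compared. Per the submitters' processing notes and the study's methods, the authors used BWA 0.7.17 for alignment of read pairs to GRCm38, SAMtools 1.8 for the removal of duplicates, MACS 1.4.2-1 for peaks, of which those present in more than 1 sample were kept, and featureCounts 1.5.0 for counting. The deposited counts are whole, not normalised and lack rows with a mean under 10. How reads in overlapping windows were assigned, and whether cut positions were shifted for the transposase, are not given in the sources used here. No per-sample column was left unmapped (0). The tables are of peaks and of windows, which reach 1 kb up and down from each GENCODE M21 transcript start, and all 49366 window identifiers matched that annotation. Peak totals ranged from 2588520 to 6871176 counts, window totals from 3326803 to 10319467, and replicates differed by more than counting noise.

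Groups were compared with the quasi-likelihood test of edgeR 4.0.16 in R 4.3.3, scaled by TMM and without a covariate, and p-values were adjusted by Benjamini-Hochberg over all 49366 windows or 36097 peaks (threshold 0.05). A positive log2 fold change means more reads in Yap-shRNA, and CPM are TMM-normalised. Each fit was tested on simulated data. Of features changed by 0.5 on the log2 scale, 8.5% of windows and 12.5% of peaks were recovered. Of those changed by 1, 75.5% of windows and 74% of peaks were recovered, so smaller changes would mostly be missed. Replicates are pools of muscles, so p-values measure the spread between these pools. The alternatives tried were DESeq2 1.42.0, limma voom 3.58.1, the edgeR likelihood-ratio test, library size alone, RLE factors, a mean count of at least 50, a replicate block and leaving out each sample. Leaving out peaks with 15 or more G or C in a row was chosen after seeing the data. The genes, lists and tests were chosen with earlier results of these data known. Named are all 10 genes, their peaks within 1 kb of a start, the peak within 50 kb with the smallest p-value for each gene, and of the other pathway genes at most 6 with the smallest p-values and the extremes. Myh4, the other marker genes and the Bola3 peak were named after their values were seen.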

Additional observations from a re-analysis of the deposited data

How the results depend on the processing

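No window of the 10 genes or of the other pathway genes passed the threshold under any of 13 alternatives, but unadjusted p-values under 0.05 appeared in up to 1 window of the 10 and 8 of the pathway, both without LacZ-shRNA replicate 1. The count of called peaks near the 10 genes fell from 1 to 0 with a mean count of at least 50 (adjusted p 0.0566), with the replicate block (0.335), without peaks that have 15 or more G or C in a row, which removes that peak, and within 1 kb of a start, which also does, and it ranged from 0 to 1 when a sample was left out. Otherwise the cause was not tested. The replicate numbers were not shown to pair the samples, since same-numbered samples correlated at 0.17, -0.17 and 0.09 in windows and 0.01, -0.18 and -0.20 in peaks. With the replicate block 13 windows and 207 peaks passed in all, against 11 and 223 without it, and the block turned the Nf2 promoter peak from -0.0057 to 0.0074. Not every sample correlated best with its own number.

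Directions near 0 did not hold. Scaling by library size alone moved the median of all peaks to 0.14 and of all windows to 0.05, and turned the windows of Lats2 (0.0050) and Sav1 (0.022) and the peaks of Amotl1 at the promoter (0.0047), Lats2 at the inner start (0.13) and at the main promoter (0.049), Mob1b at Grsf1 (0.063), Nf2 at the promoter (0.14) and Stk4 at the main promoter (0.12). With limma voom the inner Lats2 peak gave 0.010 and the first inner Stk4 peak -0.022. Leaving out a sample turned a further set, whose log2 fold changes ran in windows from -0.19 to 0.029 for Amot, -0.017 to 0.13 for Amotl1, -0.039 to 0.17 for Lats1, -0.16 to 0.015 for Lats2, -0.097 to 0.48 for Mob1a, -0.17 to 0.094 for Mob1b, -0.090 to 0.11 for Nf2 and -0.16 to 0.094 for Sav1. In peaks the ranges were -0.36 to 0.027 at the Amot promoter, -0.37 to 0.0059 at the weaker Amotl1 peak, -0.12 to 0.10 at the inner and -0.23 to 0.16 at the main Lats2 peak, -0.15 to 0.0082 at Grsf1, -0.040 to 0.18 at the Mob1b promoter, -0.14 to 0.18 at the Nf2 promoter, -0.11 to 0.16 at the Sav1 promoter, and -0.11 to 0.027 and -0.11 to 0.11 at the main and first inner Stk4 peaks. Stk3 kept its direction in window and peak under all alternatives. So did the Stk4 window and the main promoter peaks of Lats1 and Mob1a, and none of these passed the threshold under any alternative.

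By counts pooled over all peaks that overlap a window the paralogue differences were 0.35 for Lats1 over Lats2 and 0.38 for Mob1a over Mob1b, reversed from the windows. For Stk3 over Stk4 the difference was 0.45, against -0.14 per kb of unshared window. Leaving out a library gave -1.20 to -1.08 for Lats1, -3.92 to -3.62 for Mob1a and -0.52 to -0.45 for Amot against their paralogues, with an adjusted p of 0.0833 for each, where the smallest exact p that 5 libraries allow is 0.0625 before adjustment over the 4 pairs. The Mob1a window has no value at a mean count of at least 50, which it does not reach. At 13 to 39 reads per library, that window has the widest interval of the 10.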
